A study of Caenorhabditis elegans with 7 samples.

Results

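The 3 wildtype libraries among the 7 RNA sequencing libraries of the series were described here, for the level of each gene and for how far that level differed between libraries of one genotype. They were chosen by the wildtype genotype in the labels and carry the numbers 11, 22 and 30, with the strain name N2 in their titles. All were made from early, pre-gastrulation Caenorhabditis elegans embryos taken from mothers that held 1 to 2 eggs, flash frozen and extracted with Trizol before library preparation with the TruSeq chemistry of Illumina. No label tells whether separate cultures were used, so the spread between libraries may be technical. With 1 group there was no contrast and no test, and the values below are descriptions.

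The early embryo of C. elegans starts with transcripts that the mother placed in the oocyte, and the first cell divisions run largely on them. RNA-binding proteins such as MEX-5, POS-1 and PIE-1 control which of these transcripts are translated in which cell, while the germline precursor is kept transcriptionally silent. Transcription from the embryo's own genome begins first in somatic cells and produces short-lived messages such as pes-10 and the genes that specify endoderm and mesoderm. Yolk proteins are made in the mother's intestine and enter the oocyte through the receptor RME-2, so their transcripts mark maternal intestine more than embryo.

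Total counts were 42988763 in library 11, 34262203 in library 22 and 36238512 in library 30, and the libraries differed in composition before any single gene was considered. Library 30 stood apart. Ribosomal RNA genes held 14.1% of its counts, against 6.82% in library 11 and 4.24% in library 22, and at least 1 count was seen for 15271 genes in library 30, 18851 in library 11 and 17188 in library 22. Levels are therefore given as CPM, counts scaled to a common library total, with the totals adjusted by the trimmed mean of M values (TMM) at factors of 1.16, 1.14 and 0.756 in libraries 11, 22 and 30. On this scale 1 count was worth 0.0200, 0.0257 and 0.0365 CPM, and a count of 0 allowed a level of up to 0.0600, 0.0770 and 0.110 CPM, counting error only. A gene was called measured at a mean of at least 1 CPM. There were 11464 such genes, 10930 of them protein-coding, or 55.6% of the protein-coding genes in the table. Their median level was 16.9 CPM, 6781 genes reached 10 CPM, 1765 reached 100 CPM and 142 reached 1000 CPM.

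The labelled stage was set against marker genes. Transcripts of the maternal regulators were counted in all 3 libraries. All 31 genes of a list of maternal regulators of cell fate were measured, and none was at 0 in any library. Their mean levels ran from 4.40 to 1179 CPM per kilobase of exon length, with a median of 77.6. None was among the 100 genes with the highest such level, and pos-1 and mex-5 were the 2 highest of the list. pos-1, which encodes a zinc-finger RNA-binding protein (chromosome V, 8414085 to 8415255, WBcel235), had 917, 777 and 2263 CPM in libraries 11, 22 and 30. mex-5, which encodes another such protein (chromosome IV, 13353723 to 13356089), had 716.5, 802 and 2040 CPM. Each was highest in library 30, and libraries 11 and 22 were close to each other.

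Markers of intestine, hypodermis, muscle and sperm were also present. The yolk genes, cuticle collagens, muscle genes such as unc-54, which encodes a myosin heavy chain, and sperm genes were all counted in each library. unc-54 had 1254, 526 and 317 CPM in libraries 11, 22 and 30. The major sperm protein genes summed to 7151, 10674 and 14526 CPM. Regulators of later embryogenesis were mixed. elt-2 and hlh-1 were low, whereas lin-26 had 62.6, 66.5 and 73.8 CPM in libraries 11, 22 and 30. Values of pha-4, elt-1 and elt-3, of the same marker set, are not given here. elt-2, the intestinal GATA factor, had 8.32, 5.47 and 0.621 CPM, and hlh-1, the muscle MyoD homologue, had 4.12, 0.385 and 2.66 CPM. In bulk samples fewer cells of a type and less RNA per cell cannot be told apart, and what part material from the mother has in any value below was not tested.

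The most abundant messages belonged to the translation machinery, the mitochondrion, the cytoskeleton and yolk. With ribosomal RNA genes set apart, the 10 most abundant genes of each library held 7.80%, 8.98% and 8.84% of the remaining counts in libraries 11, 22 and 30, and the 100 most abundant held 28.1%, 29.6% and 28.1%. Of the remaining counts, 50% were held by 414, 407 and 368 genes. The counts were thus concentrated in similar numbers of genes in the 3 libraries.

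eef-1A.1, which encodes the elongation factor that brings aminoacyl-tRNA to the ribosome, had the highest level on both scales (chromosome III, 6970026 to 6972003). It had 12831, 16119 and 29518 CPM in libraries 11, 22 and 30. Divided by its exon length of 1549 bases this was 12582 ± 5706 CPM per kilobase (SD, n = 3). sip-1, which encodes a small heat shock protein of the oocyte and embryo, came second per length at 10943 ± 10028 CPM per kilobase (chromosome III, 10506106 to 10506801). It had 3291, 3306 and 14414 CPM, with library 30 far above the nearly equal libraries 11 and 22. Y82E9BR.3, which encodes a subunit of the mitochondrial ATP synthase, had 5892 ± 3794 CPM per kilobase. ant-1.1, the adenine nucleotide carrier of the mitochondrial inner membrane, had 3801 ± 1821 CPM per kilobase. Both were highest in library 30.

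Genes with the ribosomal protein names rpl, rps or rla filled 11 of the 20 highest places per length. rpl-41.2, with an exon length of only 293 bases, had 5505 ± 581 CPM per kilobase and was the steadiest of the 5 highest genes, at 1417, 1721 and 1701 CPM. rps-9 had 1920, 2246 and 2935 CPM, and rla-0, an acidic protein of the ribosomal stalk, had 3369, 4031 and 3391 CPM. The remaining places went to genes such as ndk-1, a nucleoside diphosphate kinase, and tct-1, the translationally controlled tumour protein.

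F23A7.8 was the exception among the 20. This single-exon gene of 227 bases on the X chromosome (16213373 to 16213599) had 271, 60.1 and 2820 CPM in libraries 11, 22 and 30. Library 30 set its mean of 4626 CPM per kilobase, and the libraries spanned 46.6-fold.

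**Figure D1:**
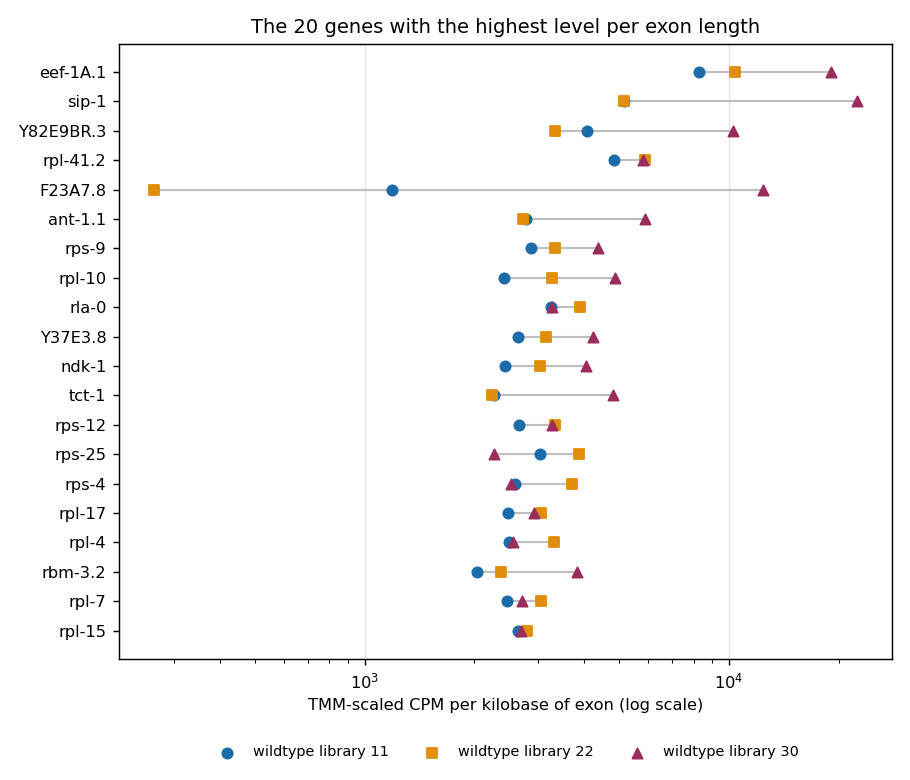
TMM-scaled CPM per kilobase of exon, on a log axis, for the 20 genes with the highest mean, with 1 point per wildtype library and a grey line over their range. Most ribosomal protein genes form tight triplets, while sip-1 and F23A7.8 are set far to the right by library 30.

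Ranking by CPM without the length gave a different list. Only 6 of the 20 highest genes were shared with the ranking per length, and the median exon length was 1804 bases by CPM and 663.5 bases per length. By CPM the long vitellogenin genes took 5 of the 20 places. vit-6 (chromosome IV, 8261145 to 8266463) had 9604, 11172 and 767 CPM in libraries 11, 22 and 30, and vit-2 (X chromosome, 5101032 to 5106173) had 8993, 9650 and 743 CPM. Per length these came to 1414 ± 1104 and 1306 ± 1003 CPM per kilobase. Of the 20 highest genes by CPM, 8 spanned 4-fold or more between libraries, against 2 of the 20 highest per length and 23.5% of all measured genes.

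Tubulins and actin were in the ranking by CPM as well. tba-2, which encodes an alpha-tubulin, had 2225, 2263 and 9353 CPM, and tbb-2, which encodes a beta-tubulin, had 2232, 2012 and 8938 CPM. act-2 had 1782, 1719 and 6196 CPM. In each of them library 30 was the high one. eef-2, the translocation factor of the ribosome, had 4349, 6796 and 6826 CPM, and hsp-90, a cytosolic chaperone, had 2832, 4563 and 3597 CPM.

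Among the ribosomal RNA genes rrn-3.1 was above eef-1A.1, whereas rrn-1.2 was below it on both scales and the median of the 19 measured genes was 41.9 CPM per kilobase. The labels do not describe how messenger RNA was selected. rrn-3.1, the large ribosomal RNA (chromosome I, 15064838 to 15068346), had 39293, 27502 and 130304 CPM in libraries 11, 22 and 30. rrn-1.2, the small one, had 8919, 4131 and 24300 CPM. Library 30 was highest and library 22 lowest in all 19 measured ribosomal RNA genes, and all 19 spanned 4-fold or more. These genes lie in near-identical repeats, so the share of each copy is uncertain.

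Gene levels spanned a median of 2.48-fold between the highest and the lowest of the 3 libraries, computed on CPM + 0.5 so that low levels do not give extreme ratios. The median SD of log2(CPM + 0.5) was 0.69. A gene that spanned at least 4-fold is called variable below. There were 2691 variable genes, 23.5% of the 11464 measured ones, with the last gene inside the threshold at 4.0007-fold and the first one outside at 3.997-fold. Without library 30 the count was 759, and a ratio over fewer libraries is smaller by construction. Of the 2691 genes, 721 spanned 8-fold or more and 25 spanned 64-fold or more. At the level of 1 to 10 CPM 30.2% of genes were variable, at 10 to 100 CPM 19.0%, at 100 to 1000 CPM 18.1%, and at 1000 CPM or more 21.8%, so that variable genes were found at every level. Counting error was small beside this spread, since the median chi-square per degree of freedom of the counts was 110 and only 229 genes were under 3. The common biological coefficient of variation from edgeR was 0.675, and 0.554 without library 30. Of 30 gene lists, 15 held a larger share of variable genes than all measured genes did. Counts of members that were highest or lowest in a library are on the TMM scale. Over all measured genes 29.2% were highest in library 11, 31.4% in library 22 and 39.4% in library 30, and 26.97% were lowest in library 11, 30.6% in library 22 and 42.5% in library 30.

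**Figure D2:**
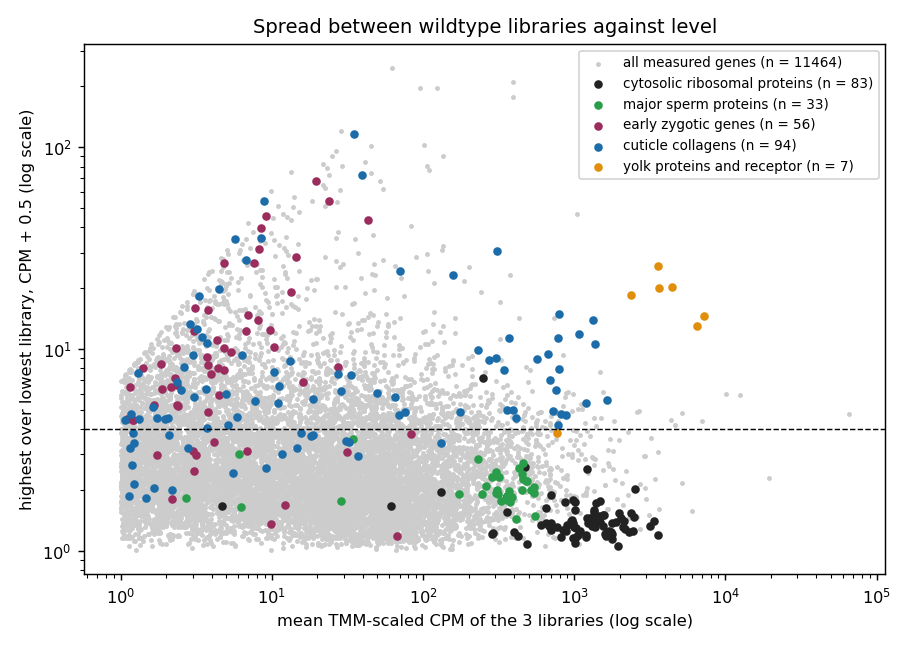
Ratio of the highest to the lowest wildtype library on CPM + 0.5 against the mean TMM-scaled CPM, both on log axes, with 1 point per measured gene and 5 gene groups in colour. The dashed line marks 4-fold. Ribosomal protein and major sperm protein genes lie below it apart from rpl-41.1, and most early zygotic genes, collagens and yolk genes lie above it.

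Libraries 11 and 22 were the most alike pair, with a Pearson correlation of 0.92 over the 11464 genes on the log scale, against 0.87 for 11 and 30 and 0.85 for 22 and 30. These values are across genes and share the libraries. Genes 4-fold or more above library 22 in library 11 numbered 651 (5.68%), while 9 (0.0785%) went the other way. Between libraries 11 and 30, 1115 genes (9.73%) were 4-fold higher in 11 and 381 (3.32%) were 4-fold higher in 30. Between libraries 22 and 30, 831 (7.25%) were 4-fold higher in 22 and 911 (7.95%) were 4-fold higher in 30. Each library had its own genes 4-fold above both others, 264 (2.3%) in library 11, 7 (0.0611%) in library 22 and 293 (2.56%) in library 30. Those 4-fold below both others were 1 (0.00872%) in library 11, 250 (2.18%) in library 22 and 392 (3.42%) in library 30. The single gene low in library 11 was ugt-64, a glucuronosyltransferase gene, with 10.7, 52.6 and 50.5 CPM. It was named after its values were seen.

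Most of the first zygotic genes were lowest in library 22. Of 67 genes matched in this list, 56 were measured and 44 of these were variable, against 23.5% of all measured genes. Of the 44, 40 had their lowest level in library 22, against 41.4% of all variable genes. The highest level was in library 30 for 33 of the 44 and in library 11 for 10. Without library 22 the count of variable genes was 12, and without library 30 it was 31. At a mean of 5 CPM, which fewer genes reach, the count was 17. The filter is on the mean of the libraries, so members low in library 22 alone can pass it through the other libraries. Of the 67 genes 9 were at 0 in library 22. Their levels summed to 577, 192 and 880 CPM in libraries 11, 22 and 30. With library size as the only scaling the sums of libraries 11 and 30 were level, with library 30 lower by 0.01 on the log2 scale. pes-10, the standard marker of early embryonic transcription (chromosome II, 12846203 to 12847836), had 23.0, 0.411 and 48.7 CPM. vet-6, a very early transcript (chromosome I, 13269995 to 13272781), had 39.8, 1.54 and 88.1 CPM. sdz-16, a gene whose zygotic expression depends on SKN-1, had 7.44, 0.257 and 50.7 CPM and spanned 67.7-fold. In each of them library 22 was low by a wide margin, and library 30 was above library 11.

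Some regulators of the early blastomeres had the order library 30, then 11, then 22 as well, although 16 of the 56 measured genes were highest in library 11 and 6 were lowest in library 30. ceh-51, a homeobox gene of the MS lineage, had 2.78, 0.0770 and 22.4 CPM, and tbx-37, a T-box gene of the AB lineage, had 1.48, 0.154 and 9.67 CPM. end-1, which specifies endoderm, had 1.26, 0.0513 and 1.97 CPM. lin-26, a zinc-finger gene of epithelial fate, did not share the pattern. It had 62.6, 66.5 and 73.8 CPM and spanned 1.18-fold. tbx-9, a T-box gene, had 23.4, 17.2 and 53.9 CPM.

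Among all variable genes this order held for 801 of 2691 (29.8%), while the order library 11, then 22, then 30 held for 830 (30.8%). Among genes with a mean of at least 20 CPM, the 20 with the largest ratios spanned 72.7-fold to 247-fold, and 13 of them had the order library 30, then 11, then 22. skr-8, a Skp1-related gene, had 54.3, 1.104 and 316 CPM (chromosome IV, 17165189 to 17165853), and its neighbour skr-9 had 41.9, 0.744 and 244 CPM. dsl-1 and dsl-2, which encode Notch ligands of the DSL type, had 7.86, 0.154 and 77.8 CPM and 31.6, 2.13 and 269 CPM. Both copies of pes-2.1 followed, at 73.1, 2.54 and 245 CPM and at 74.8, 2.75 and 249 CPM. skr-8 with skr-9 and the copies of pes-2.1 are similar in sequence, so reads may be shared between them and the paired values are not independent.

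**Figure D3:**
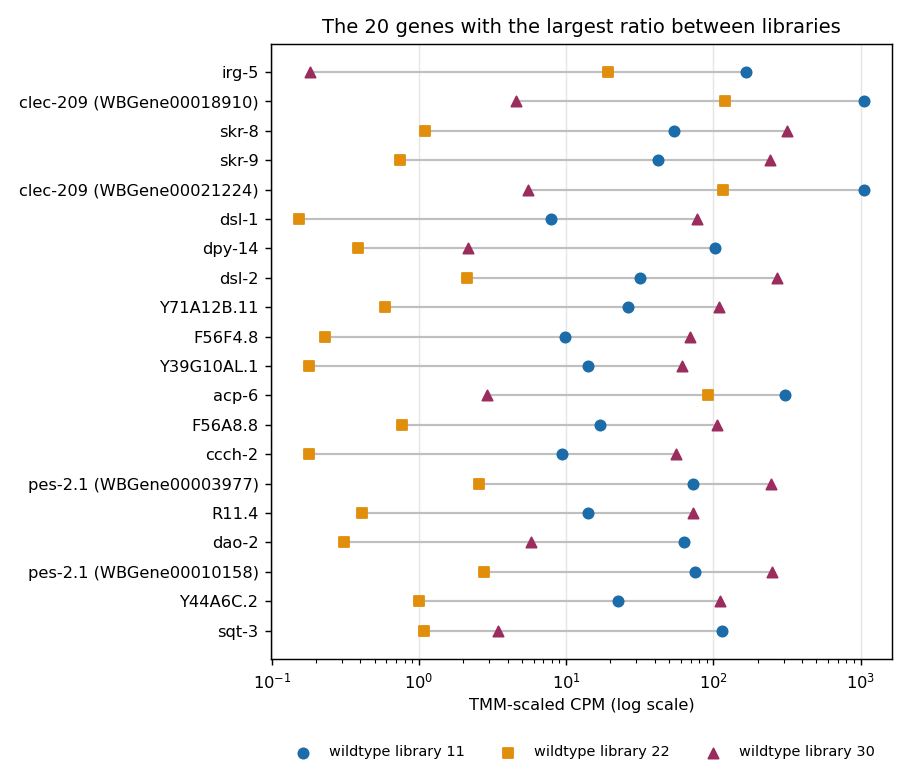
TMM-scaled CPM, on a log axis, of the 20 genes with the largest ratio of highest to lowest wildtype library among those with a mean of at least 20 CPM, with 1 point per library. Library 22 is lowest in 16 of the 20, and irg-5, clec-209 and acp-6 instead have library 30 lowest.

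The remaining 7 of the 20 were highest in library 11. irg-5, an infection response gene (chromosome V, 13737007 to 13738471), had 168, 19.1 and 0.183 CPM in libraries 11, 22 and 30, the largest ratio of all at 247-fold. The clec-209 copies, C-type lectin genes, had 1059, 119 and 4.53 CPM and 1059, 117 and 5.48 CPM. acp-6, an acid phosphatase gene, had 309, 92.3 and 2.92 CPM. In these library 22 lay between the others, whereas dpy-14, a cuticle collagen gene, had 102, 0.385 and 2.15 CPM and sqt-3, another, had 114, 1.08 and 3.47 CPM, with library 11 alone high.

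Cuticle and hypodermis genes as groups were highest in library 11. Over all measured genes 23.5% were variable, and 41.9% of the variable genes were highest in library 11. Of 179 matched collagen genes 94 were measured and 72 of these were variable (51 at a mean of 5 CPM). Of the 72, 59 had the highest level in library 11, and the summed level of the collagens was 41780, 9109 and 6940 CPM. Between libraries 22 and 30 most members did not follow the sum. Of the 94, 58 were lowest in library 22, against 30.6% of all measured genes, and 33 in library 30, against 42.5%. The median log2 ratio of library 30 to library 22 was 0.87. Without library 11 the count of variable collagens was 18, and without library 22 it was 37. col-122, the highest collagen per length (chromosome IV, 9563360 to 9564471), had 3642, 692 and 649 CPM. Of 79 matched genes of hypodermis and moulting 29 were measured. Of these 26 were variable, 25 of them highest in library 11, and 2 were variable without that library. At a mean of 5 CPM, which fewer genes reach, the count of variable genes was 11. The filter is on the mean of the libraries, so members high in library 11 alone can pass it through that library. far-2, a fatty acid and retinol binding protein gene, had 2761, 1152 and 605 CPM, and noah-1, an apical matrix gene, had 64.4, 0.770 and 2.41 CPM. Body wall muscle genes shared this pattern, with all 20 highest in library 11 and sums of 6759, 2796 and 2272 CPM. The count of variable muscle genes was 14, and it was 3 without library 11 and 2 without library 30. Of 122 matched genes of neurons 40 were measured and 14 of these were variable, all of them highest in library 11. The count was 1 without that library and 5 at a mean of 5 CPM. It was 8 and 26 with pseudocounts of 1 and 0.1 CPM, and 23 with library size alone. The summed level of the neuron genes was 526, 243 and 503 CPM, so the sums of libraries 11 and 30 were nearly level. Most members were not level between them. Of the 40, 35 were highest in library 11, against 29.2% of all measured genes, and the median log2 ratio of library 30 to library 11 was -1.40.

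Yolk transcripts were low in library 30. The list held 7 measured genes, the 6 vitellogenins and the receptor gene rme-2. All 7 had their highest level in library 22 and their lowest in library 30. Of the 7, 6 were variable, against 23.5% of all measured genes. The sums were 38674, 43721 and 2857 CPM in libraries 11, 22 and 30, so libraries 11 and 22 were 13.5-fold and 15.3-fold above library 30. Without library 30 no yolk gene was variable. vit-3 had the widest ratio, with 4973, 5540 and 215 CPM, or 25.7-fold. rme-2, expressed in the oocyte, had 795, 1208 and 315 CPM, or 3.83-fold. The vitellogenin genes vit-3, vit-4 and vit-5 are similar in sequence, and reads shared between them could move their single values. Genes of the adult intestine were lowest in library 30 for 46 of 55, against 42.5% of all measured genes. Of the 55, 20 were variable (4 without library 30), or 36.4%, against 23.5% of all measured genes. The esterase gene ges-1 had 16.9, 17.6 and 0.548 CPM. asp-1, an aspartyl protease gene and the highest of that list per length, did not share the pattern at 3162, 2147 and 2560.0 CPM.

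Of 20 measured eggshell genes 13 had library 30 lowest, against 42.5% of all measured genes, and 3 were variable (6 with library size alone), a share below the 23.5% of all measured genes. cpg-2, a chondroitin proteoglycan of the eggshell, had 2735, 3747 and 1747 CPM, and cbd-1, a chitin-binding eggshell protein, had 1371, 2201 and 484 CPM. perm-1, a gene of the permeability barrier, had 57.6, 112 and 15.8 CPM.

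The summed levels of genes of cell division and protein turnover were highest in library 30, but their members were mixed. Of 47 cell cycle and replication genes 28 were highest and 14 lowest in library 30, and of 10 tubulins 5 were highest there, 5 in library 11, and 4 were lowest there. The tubulins summed to 7231, 6727 and 28500 CPM and the cell cycle and replication genes to 10174, 9792 and 23438 CPM. cyb-3, a B-type cyclin, had 1150.0, 803 and 3528 CPM. sas-4, a centriole gene, ran the other way with 25.6, 48.2 and 6.21 CPM. All but 1 of the 33 proteasome genes were highest in library 30, with sums of 8338, 9134 and 24226 CPM. The count of variable genes was 7, a share no larger than the 23.5% of all measured genes, and it was 0 with library size alone and 2 with upper quartile scaling. Their libraries 11 and 22 stood close, and which was higher turned with upper quartile scaling. rpn-11, the deubiquitinase of the proteasome lid, had 295, 259 and 1257 CPM. rsp-3, a splicing factor of the SR family, had 587, 444 and 3397 CPM and spanned 7.64-fold.

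Histone genes were highest in library 30 for 60 of 62, against 39.4% of all measured genes. They were lowest in library 22 for 56, against 30.6%, and 27 were variable, against 23.5% of all measured genes. That count was 11 with library size alone, 42 with a pseudocount of 0.1 CPM, 6 without library 22 and 1 without library 30. his-72, which encodes the replacement histone H3.3, had 320, 195 and 755 CPM. his-24, a linker histone gene, had 124, 7.47 and 192 CPM, with library 22 far below the others. Most replication-dependent histone genes come in near-identical clusters and give messages without a poly(A) tail, so their counts are uncertain. Transcripts of the mitochondrial genome were lowest in library 22 for all 14 measured genes, with sums of 2293, 760 and 2420 CPM. Which of libraries 11 and 30 was higher there turned with library size alone and with upper quartile scaling.

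**Figure D4:**
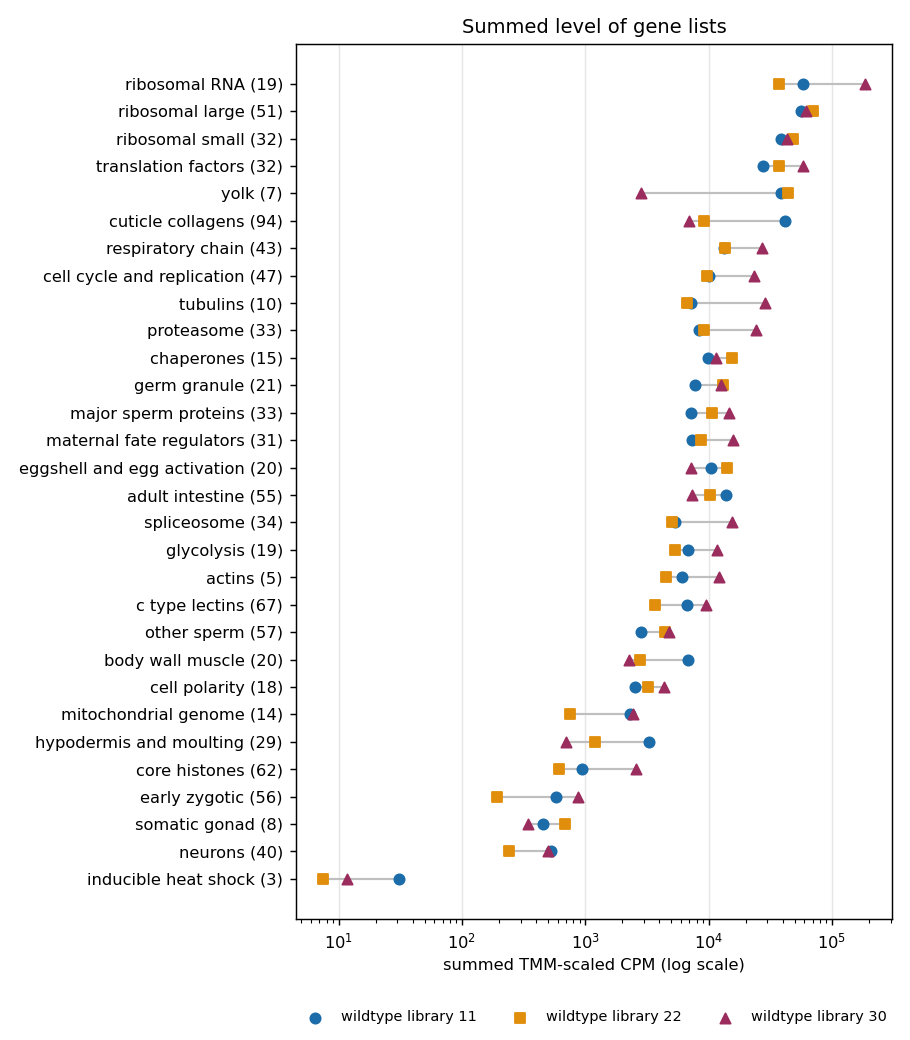
Summed TMM-scaled CPM of 30 gene lists in each wildtype library, on a log axis, with the number of measured genes in brackets and the sums taken over all matched members. Yolk is far lower in library 30, collagens are higher in library 11, early zygotic genes are lower in library 22, and ribosomal proteins differ little.

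The maternal cell fate regulators were steadier than the zygotic genes. Of 31 measured genes 2 were variable, against 23.5% of all measured genes, and 20 were highest in library 30, against 39.4%. Their median ratio of 2.31-fold was still close to the 2.48-fold of all measured genes. The sums were 7371, 8639 and 15762 CPM. mom-2, the Wnt ligand that polarizes the endoderm precursor, had 100.3, 152 and 537 CPM, and apx-1, a Notch ligand, had 75.8, 87.7 and 365 CPM. pie-1, which keeps the germline precursor silent, had 85.6, 86.1 and 262 CPM. gld-1, a translational repressor, had 518, 835 and 1556 CPM. glp-1, a Notch receptor, went the other way with 147, 168 and 94.6 CPM.

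Polarity and germ granule genes varied in both directions. par-5, a 14-3-3 protein gene, had 985, 1222 and 2481 CPM, whereas nmy-2, which encodes the non-muscle myosin of the cortex, had 291, 593 and 114 CPM. pgl-1, a germ granule protein gene, had 316, 693 and 530 CPM, and znfx-1, a helicase gene of the same granules, had 41.1, 89.6 and 8.72 CPM and spanned 9.77-fold. nmy-2 and znfx-1 have exon lengths of 6494 and 7392 bases, par-5 1257.

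Ribosomal proteins, translation factors, respiratory chain genes and major sperm proteins had few or no variable genes, against 23.5% of all measured genes. Of 51 large subunit genes 1 was variable, and of 32 small subunit genes none was. Their sums were 56299, 70031 and 61154 CPM for the large and 38625, 48465 and 43504 CPM for the small subunit in libraries 11, 22 and 30. Which of libraries 11 and 30 was higher turned with library size alone and with upper quartile scaling. The 1 variable member was rpl-41.1, with 141, 74.0 and 531 CPM, a near copy of rpl-41.2. Translation factors had no variable gene among 32 but were higher in library 30, with sums of 27705, 37092 and 58094 CPM. They spanned a median of 2.41-fold, close to the 2.48-fold of all measured genes. At a 2-fold threshold 22 of the 32 passed, beside 65.4% of all measured genes. Among 33 major sperm protein genes none was variable, with msp-31 at 358, 479 and 713 CPM and msp-36 at 433, 573 and 642 CPM. These genes are near copies of each other. Their sums were highest in library 30, but with library size alone library 22 was above it. No gene of the respiratory chain and none of the constitutive chaperones was variable. The respiratory chain genes still spanned a median of 2.33-fold, close to the 2.48-fold of all measured genes. Of these 43 genes 38 were highest in library 30, against 39.4% of all measured genes, with sums of 13427, 13532 and 26899 CPM.

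Other lists mixed both kinds of gene. Of 67 measured C-type lectin genes 23 were variable (34.3%), against 23.5% of all measured genes. clec-87, the highest of them per length, had 1460, 1075 and 5239 CPM. Of 34 spliceosome genes 8 were variable, the same share as over all measured genes, with prp-40 at 59.0, 96.2 and 11.4 CPM, opposite in order to rsp-3. Glycolysis had 1 variable gene of 19, which was gpd-1, a glyceraldehyde-3-phosphate dehydrogenase gene, at 586, 556 and 2395 CPM. Of 57 measured sperm genes outside the major sperm proteins 2 were variable, among them spe-11, a paternal gene of egg activation, at 12.04, 33.95 and 5.26 CPM. The somatic gonad list had 3 variable genes of 8, beside 23.5% of all measured genes. That count was 1 at a mean of 5 CPM, 1 with a pseudocount of 1 CPM and 0 without library 30. The filamin gene fln-1 of this list had 259, 455 and 73.9 CPM. Inducible heat shock genes were nearly silent, as 3 of 13 were measured and their sum was highest in library 11 at 30.8 CPM.

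The least variable genes with a mean of at least 100 CPM belonged to varied processes. npp-12, a nuclear membrane protein of the pore complex (chromosome I, 6447309 to 6453949), had 157, 158 and 155 CPM, with a ratio of 1.01-fold. idhg-1, a subunit of isocitrate dehydrogenase, had 150, 152 and 151 CPM. top-2, topoisomerase II, had 640, 660 and 625 CPM, and rpl-15 had 1899, 2010 and 1930 CPM. All 10 genes of this ranking had ratios of up to 1.08-fold.

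Gene length went with the difference between library 30 and the other libraries. Protein-coding genes were put into 5 groups of equal size by exon length. The median log2 ratio of library 30 to library 11 was 0.54, 0.16, -0.08, -0.36 and -0.66 going to longer genes. The ratio of library 30 to library 22 was 0.53, 0.19, -0.08, -0.27 and -0.52. The ratio of library 22 to library 11 stayed between -0.11 and 0.04. With exon blocks in place of length the ratio of library 30 to 11 was 0.54 for genes of 3 blocks as the median and -0.75 for those of 12. Over single genes the relation was weak, with a Spearman rho of -0.26 for the ratio of library 30 to 11 over 10930 genes that share the same libraries. Exceptions were found at both ends, as rps-24, with 468 bases, was lowest in library 30 at 1273, 1711 and 674 CPM, and eef-2, with 2820 bases, was not low there. Whether length, or reads over exon junctions, has a part in the levels was not tested.

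**Figure D5:**
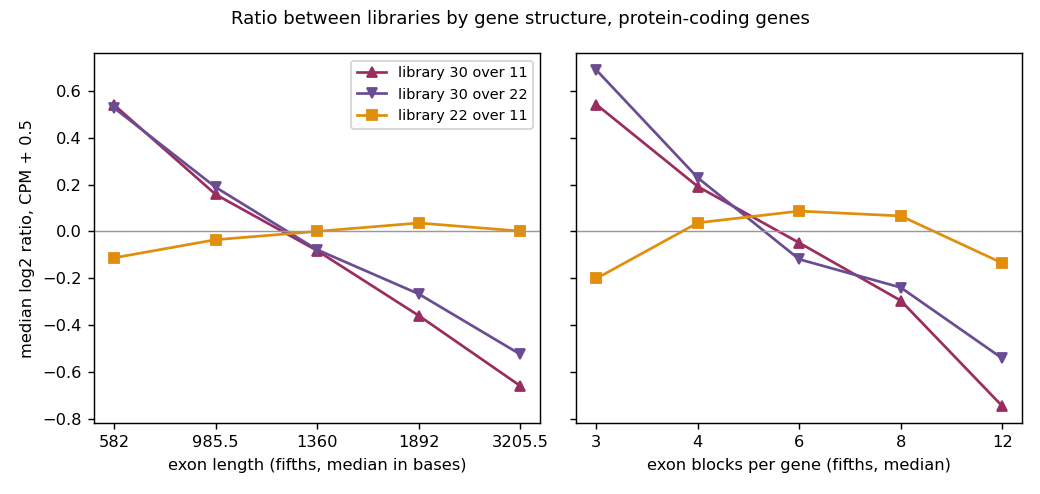
Median log2 ratio between wildtype libraries on CPM + 0.5 for protein-coding genes in 5 equal groups by exon length (left) and by exon blocks per gene (right), with the median of each group on the x axis. Both ratios of library 30 slope downwards with length and blocks, and the ratio of library 22 to 11 stays near 0.

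The main groups were looked at again after each library had been centred within 20 bins of exon length, an alternative added after seeing the data. Then 2427 genes were variable, and 2053 of the 2691 were shared (76.3%). The count was 6 of 7 for yolk, 42 of 56 for the early zygotic genes and 68 of 94 for the collagens. For histones it was 11 with the centring and 27 without it, and for the proteasome 4 and 7. With the centring the histone share was 17.7%, below the 21.2% of all measured genes. The median log2 ratio of the yolk genes in library 30 to library 11 was -3.07 with the centring and -4.11 without it.

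Position in the genome went with both level and spread. Protein-coding genes were measured for 71.2% on chromosome I, 72.6% on III and 37.2% on V, with 48.4% on X. The X chromosome had the lowest median level per length of the nuclear chromosomes, at 4.96 CPM per kilobase, and the largest share of their variable genes, at 32.5%. Its median level was 7.44 CPM, and of all measured genes at 1 to 10 CPM 30.2% were variable. Whether position goes with spread beyond the level was not tested. The X chromosome held 10.2%, 7.06% and 4.24% of counts other than ribosomal RNA in libraries 11, 22 and 30. Without the vitellogenin genes, 5 of which lie on it, the shares were 6.96%, 3.51% and 4.10%.

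The genes set apart in 1 library also differed in kind. The 293 genes 4-fold above both others in library 30 had a median exon length of 916 bases, and the 392 genes 4-fold below both others in it had 1881.5 bases, beside 1338 bases over all measured genes. The 250 genes low in library 22 had a median of 2 exon blocks, 26 of them were early zygotic genes, and 34% lay on chromosome II, which holds 18.02% of measured genes. The 264 genes high in library 11 included 27 collagens and 21 genes of hypodermis and moulting, and 24.6% of them lay on X, which holds 11.8% of measured genes.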

How the data were processed

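The authors deposited a table of 46748 genes whose values are unnormalized read counts. Per the file headers, featureCounts 1.6.4 counted exons per gene on trimmed alignments to a WBcel235 annotation, and its command sets neither strand nor the treatment of pairs and multiple mappings. Reads of overlapping, antisense or near-identical genes can therefore not be told apart. The submitters' processing notes also name BWA and DESeq2. The deposited exon length per gene, in bases, came from the same table. A further wildtype alignment named in the header was not analysed here, and the authors' comparison table was not used.

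The 3 wildtype count columns were scaled by TMM (edgeR 4.0.16, R 4.3.3). CPM per kilobase is CPM divided by the exon length. Spread was the SD of log2(CPM + 0.5) and the ratio of the highest to the lowest library. edgeR's dispersion came from an intercept-only model, and DESeq2 1.42.0 gave size factors for an alternative. Symbols came from a gene name table and Ensembl release 115 (43693 identifiers) or from identical positions in RefSeq (2275), and coordinates from the count table. The named genes were the 20 highest by CPM and per length, the 20 largest ratios at 20 CPM or more, the 10 smallest SDs at 100 CPM or more, and for each list the 2 highest per length and the largest ratio, plus markers of embryo and other cell types. Members and lists were chosen with earlier results of these data known. Total counts ran from 34262203 to 42988763 per library, and the widest half-width of a 95% Wilson interval on a list's share was 0.0113 percentage points. Such intervals cover counting error only. Scripts were tested on simulated data.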

Additional observations from a re-analysis of the deposited data

How the results depend on the processing

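No paired analysis was possible because only the wildtype group is described and no test was made. The count of measured genes was 11464, and 19805 with no filter beyond 1 count. The share of counts in the 10 and 100 most abundant genes averaged 14.5% and 34.1%, and 8.54% and 28.6% with ribosomal RNA genes left out. The count of variable genes was 2691. It was 1686 at a mean of 5 CPM, 7492 at a 2-fold and 721 at an 8-fold threshold, and 3333 with library size alone. Leaving out 1 library gave 759 to 1670 genes (759 without library 30, 1670 without 11, 1485 without 22), and the highest over the lowest of fewer libraries is smaller by construction. The median SD ran from 0.393 without library 30 to 0.691 without library 11, and the biological coefficient of variation from 0.554 without library 30 to 0.719 without library 11. Library size alone moved the median log2 ratio of library 30 to library 11 by -0.62 and to library 22 by -0.59, and upper quartile scaling by -0.25 and -0.09, so smaller differences of library 30 depend on the scaling. Of the ratios of 134 named genes, 35 moved by 1 SD or more with library size alone, 12 with upper quartile scaling, 3 with DESeq2 size factors, 27 without library 11, 33 without library 22 and 72 without library 30.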
